A study of Homo sapiens with 14 samples.

Results

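The interferon-stimulated genes described here are 42 genes listed by symbol, out of 54628 gene symbols in each count table. The list draws on general knowledge of the interferon response and was chosen with earlier results of these data known. All 42 symbols were found. Their expression was read as CPM, the usual depth-scaled read count (a gene's reads divided by all reads that the submitters' counting gave to genes, scaled up by a fixed factor), in 14 RNA-seq libraries of IMR90 cells. IMR90 is a widely used strain of human lung fibroblasts, grown here as isolates I79 and I83 at passage 5, and which isolate gave which library is not stated in the sources used here.

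Cells that sense viral or misplaced nucleic acid secrete type I interferon, which binds the receptor chains IFNAR1 and IFNAR2 on the same or neighbouring cells. The kinases JAK1 and TYK2 then phosphorylate transcription factors of the STAT family, among them STAT2, which join IRF9 and switch on genes that carry an interferon-stimulated response element. Many of these genes encode antiviral proteins, fibroblasts respond readily to interferon, and senescent fibroblasts are known for interferon signalling that follows DNA leakage into the cytosol.

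The libraries fall into 7 groups of 2. WT cells were untreated and proliferating, and siHMGB2 cells were untreated cells in which siRNA targeted HMGB2, a chromatin protein lost as fibroblasts age in culture. The other 5 groups were all exposed for up to 6 days to inflachromene (ICM) at 10 µM, an HMGB-binding compound that drives these cells into senescence. ICM alone has 4 libraries, called ICM 1, 2, 3 and 4. Libraries labelled siSRRM2 and siBANF1 come from ICM cells with siRNA against the nuclear speckle protein SRRM2 or the chromatin-bridging protein BANF1. The siCTCF libraries come from ICM cells with siRNA against the architectural protein CTCF. ICM 3-4 and siCTCF carry titles of a different form from the other libraries and have no untreated library of that form, so set and treatment cannot be told apart when ICM 3-4 is set against WT. The cell line field of these 4 reads IMR91 to IMR94, although their titles say IMR90. Neither scrambled siRNA nor ICM-free vehicle libraries were analysed here, and ICM was present in the controls of the SRRM2, BANF1 and CTCF knockdowns.

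Counts given to genes ranged from 22336161 to 58257456 per library, and reads given to no gene made up 12.75% to 41.78%. Labels do not say whether the libraries of a group came from separate cultures, so p-values measure only the spread between these libraries, which may be technical. HMGB2 stood at 27.7 and 28.0 CPM in WT and 3.18 and 3.52 in siHMGB2. SRRM2 was 238 and 112 CPM in ICM 1-2, 76.0 and 76.4 in the libraries labelled siSRRM2 and 59.0 and 17.0 in those labelled siBANF1, while BANF1 was 13.5 and 32.7, 34.2 and 33.3 and 17.0 and 36.7 in the same order. SRRM2 was thus lowest in libraries labelled siBANF1 and BANF1 was not lowest there, and the deposited tables of these 4 libraries are named for the other knockdown than their labels give. Every direction given for either knockdown therefore rests on labels that these genes and table names go against, and whether the labels are exchanged was not settled here. CTCF was 94.9 and 91.9 CPM in ICM 3-4 and 71.5 and 23.0 in siCTCF. Replicates stood far apart in ICM 1-2 and siBANF1: of the 13123 genes averaging 1 CPM or more, 34.3% and 35.4% differed at least 2-fold between the replicates, against 0.632% in WT and 0.00762% in siSRRM2. Counts of the siSRRM2 replicates still differed by more than counting noise (mean chi-square per gene 5.45, where counting alone gives about 1). The value of about 1 applies to the mean and not to the median, which was 1.17 in siSRRM2. In WT the mean was 30.3 and the median 3.55. Fibroblast markers (14 of 14 detected) summed to 28880 to 52030 CPM in the untreated libraries. In the ICM-treated libraries the sum was 2601 to 6084 CPM where titles have the later form (ICM 3-4, siCTCF) and 5555 to 22950 in the others. Of 14 immune cell markers, 12 were below 1 CPM in every library and CD3E, CD3D, MS4A1, NKG7 and LILRA4 had no count. The other 2 were CD14, at 0.242 to 12.95 CPM, and the lysosomal protein gene CD68, which rose from 39.1 and 39.5 CPM in WT to 95.0 and 104 in ICM 3-4 (log2 fold change 1.14, SE 0.16, edgeR adjusted p = 0.00112). Of 10 epithelial and endothelial markers, 6 were below 1 CPM in every library. The keratin gene KRT18 rose from 46.1 and 42.7 CPM in WT to 194 and 176 in ICM 3-4 (log2 fold change 1.86, SE 0.17, edgeR adjusted p = 0.000194). Of the 6 markers of this list that were tested, 1 was called higher there and 4 lower (all genes: 23.5% each way). KDR was among those lower, at 6.1 and 6.4 CPM in WT and 0.46 and 0 in ICM 3-4. In bulk samples such as these, fewer expressing cells and less RNA per cell cannot be told apart.

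Promoter sequence is shown for 7 members because promoters can carry the element through which the response is known to act, and because these members take different courses below. RefSeq promoter windows of the GRCh38.p14 build matched 34 of the 42 members. Each line gives the 150 bases before the gene start, read 5′ to 3′ on the gene's strand, with capitals marking the response element core GAAANNGAA or its reverse complement TTCNNTTTC. Where matches overlap they share letters.
IFIT1, chr10:89392473-89392622 (+): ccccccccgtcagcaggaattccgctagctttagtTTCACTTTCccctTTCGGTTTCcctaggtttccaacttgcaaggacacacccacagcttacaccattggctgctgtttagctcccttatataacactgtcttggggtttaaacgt
IFIT3, chr10:89327847-89327996 (+): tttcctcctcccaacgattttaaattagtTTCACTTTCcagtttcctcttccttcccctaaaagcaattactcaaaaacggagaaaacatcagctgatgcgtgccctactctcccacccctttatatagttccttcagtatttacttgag
ISG15, chr1:1013347-1013496 (+): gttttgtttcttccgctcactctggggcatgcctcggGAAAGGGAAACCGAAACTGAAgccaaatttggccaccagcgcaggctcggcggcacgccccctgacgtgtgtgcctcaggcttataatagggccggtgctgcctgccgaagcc
GBP1, chr1:89065209-89065358 (-): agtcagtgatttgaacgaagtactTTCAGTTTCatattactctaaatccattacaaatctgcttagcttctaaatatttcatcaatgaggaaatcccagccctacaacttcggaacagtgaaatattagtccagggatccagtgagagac
IFITM1, chr11:313890-314039 (+): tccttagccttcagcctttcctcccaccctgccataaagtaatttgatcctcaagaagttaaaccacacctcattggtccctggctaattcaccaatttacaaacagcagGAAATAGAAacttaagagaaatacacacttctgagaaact
PARP14, chr3:122680689-122680838 (+): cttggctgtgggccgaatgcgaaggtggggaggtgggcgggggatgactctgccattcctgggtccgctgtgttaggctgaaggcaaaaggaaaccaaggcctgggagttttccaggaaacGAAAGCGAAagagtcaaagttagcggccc
SAMD9L, chr7:93148386-93148535 (-): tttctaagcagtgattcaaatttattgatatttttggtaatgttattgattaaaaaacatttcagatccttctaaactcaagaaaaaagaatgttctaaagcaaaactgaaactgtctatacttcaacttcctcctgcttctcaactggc

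Across the full windows, from 250 bases before to 50 bases after the start and on both strands, the core was present in 24 of 34 members (70.6%) and in 2264 of 27305 windows overall (8.29%). It occurred at least 2 times in 16 members. The gamma-activated site TTCNNNGAA, the element of interferon gamma signalling, was found in 9 of 34 members (26.5%) and 7.88% of all windows. IFIT1, with 2 cores on the reverse strand in the stretch shown, and ISG15, with 3 overlapping cores, moved differently between groups, as given below. SAMD9L has no match to the core in its window.

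Per kilobase of annotated exon (GENCODE v29 gene models), which allows levels of different genes to be set side by side, the membrane proteins that block virus entry were the highest members in WT. IFITM3 stood at 273 ± 4.3 CPM per kb (mean ± SD, n = 2), IFITM1 at 84.3 ± 2.3 and IFITM2 at 82.1 ± 5.2, so these last neighbours differed by less than the spread of IFITM2. STAT2, a subunit of the interferon transcription factor, followed at 29.9 ± 1.2, the ubiquitin-like protein ISG15 at 23.9 ± 2.9 and the mitochondrial protein IFI6 at 16.6 ± 2.7 CPM per kb. The antibody receptor TRIM21 was at 11.6 ± 0.82, the GTPase GBP1 at 9.97 ± 1.1, the transcription factor IRF1 at 8.12 ± 0.031 and USP18, which removes ISG15 from proteins and damps receptor signalling, at 8.09 ± 0.79 CPM per kb. IFITM1 and IFITM2 share 32.5% and 22.7% of their exon bases with each other in that annotation, so reads could be lost or split between them.

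**Figure D1:**
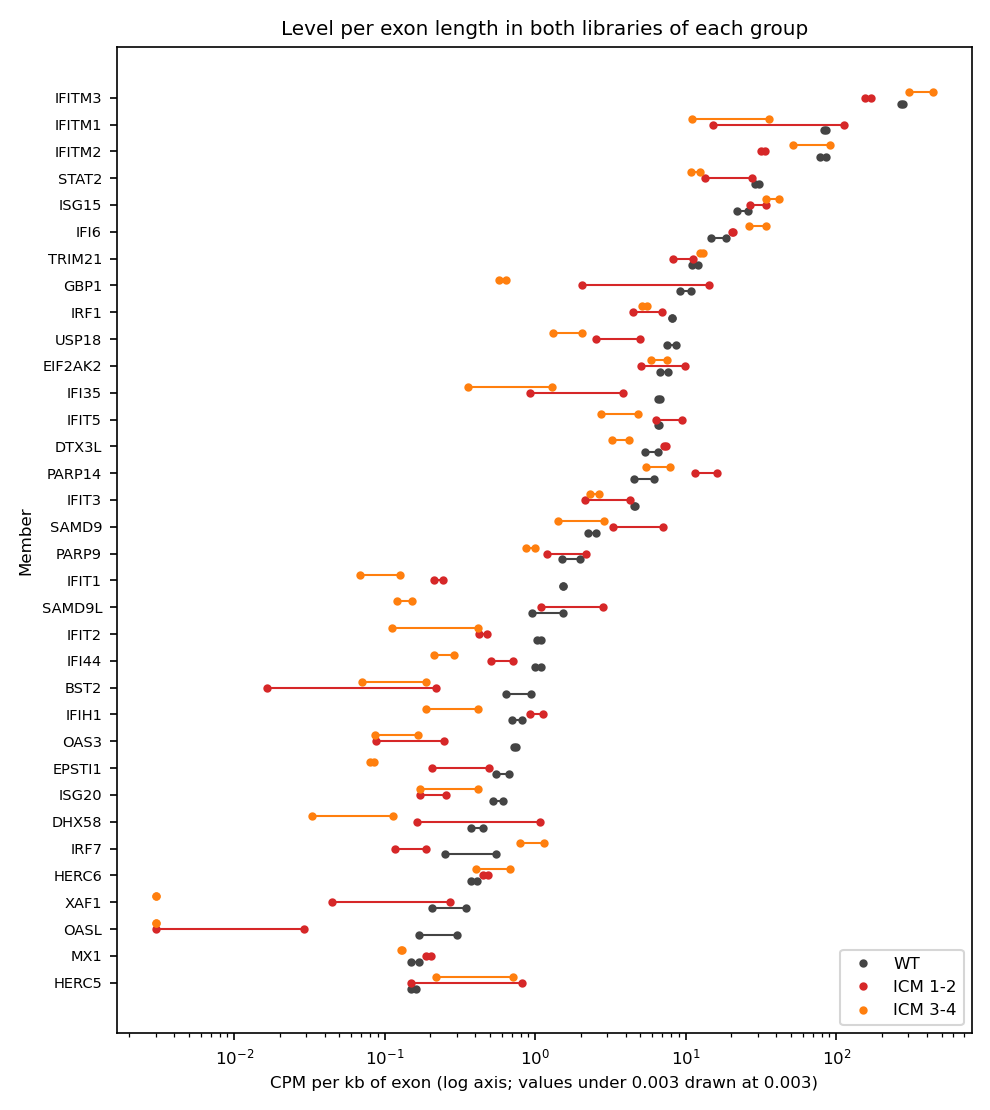
CPM per kb of exon (log axis) of 34 members with a WT mean of at least 0.1, points joined for the 2 libraries of WT, ICM 1-2 and ICM 3-4. IFITM3 is highest in each group, GBP1 and SAMD9L in ICM 3-4 lie far left of WT, and XAF1 and OASL, with no count in ICM 3-4, are drawn at 0.003.

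In CPM, 11 members had at least 10 in every library, 7 were below 1 in every library, and 31 had a mean of at least 1 over the 14 libraries. The canonical markers IFI27 and OAS1 were at the detection limit: IFI27 had 0 to 2 reads per library and OAS1, a sensor of double-stranded RNA, 0 to 4. OAS2 had 0 to 8 reads. IRF9, the DNA-binding partner of STAT2, had 2 reads in ICM 1, 1 in siBANF1 2 and 0 in the other 12 libraries. In GENCODE v29, 48.4% of the exon bases of IRF9 belong to another gene model on the same strand, and PSME1, a proteasome activator subunit encoded beside it, was listed at 0 in 12 libraries, so IRF9 is given only as listed near 0. These 4 members did not pass the filter on low counts, and 38 members were tested. Of the tested ones, RSAD2, CMPK2, IFI44L, MX2, HERC5, OASL and BST2 had group means below 1 CPM in WT. Expression of the 42 members summed to 1225 and 1299 CPM in WT and to between 957 and 1214 CPM in the other libraries.

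**Figure D2:**
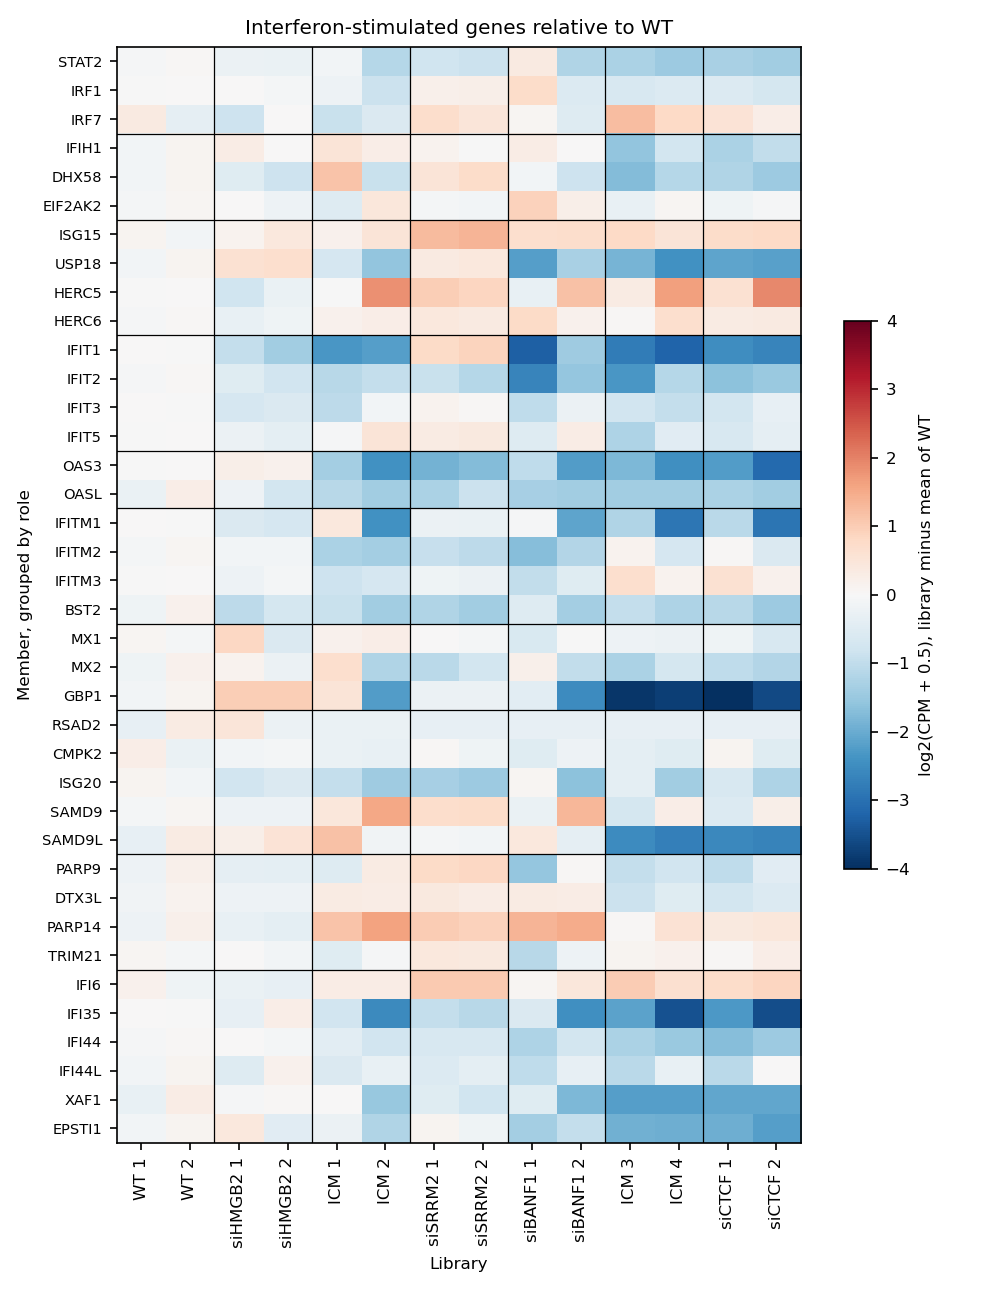
Heat map of the 38 tested members, grouped by role with transcription factors at the top, in each of the 14 libraries; colour is log2(CPM + 0.5) minus the WT mean. OAS3 is blue in all 10 ICM-treated libraries, IFIT1 in all of them but siSRRM2, where it is red, GBP1 is red in siHMGB2 and dark blue in ICM 3-4 and siCTCF, and ISG15 and IFI6 are red in ICM 3-4 and siCTCF.

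Senescent ICM 3-4 cells were compared with WT to ask how the response genes stand in senescence. Of 38 members tested, 21 were lower (55.3%) and none was higher, while over all 19126 genes tested 23.5% were lower and 23.5% were higher. The members' median log2 fold change was -1.54, or -1.35 with the tested genes that had no count in ICM 3-4 (OASL, RSAD2 and XAF1) held at their bound, against 0 over all genes. Each of the 10 roles had at least 1 member that fell. 12 of the 14 fibroblast markers fell as well, and mitochondrial mRNA took 0.241% and 0.252% of gene counts in ICM 3-4 against 3.54% and 3.11% in WT. The part of either in the members' result was not tested.

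All 4 IFIT genes, whose proteins bind foreign RNA and hold back its translation, fell. IFIT1 stood at 7.002 and 6.996 CPM in WT, 0.984 and 1.12 in ICM 1-2 and 0.586 and 0.315 in ICM 3-4. All 4 ICM libraries were below both WT libraries, and the ICM 3-4 difference was called (log2 fold change -4.14, SE 0.41, edgeR adjusted p = 0.000218). IFIT3 fell from 12.2 and 12.0 CPM in WT to 6.99 and 6.07 in ICM 3-4 (log2 fold change -1.08, SE 0.25, edgeR adjusted p = 0.00996), with ICM 1-2 at 5.66 and 11.2. IFIT2 and IFIT5 fell by 2.20 and 1.01 on the log2 scale.

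The guanylate-binding GTPase GBP1 had the largest fall among members that kept counts. It was 45.7 and 53.8 CPM in WT and 2.89 and 3.19 in ICM 3-4 (log2 fold change -4.23, SE 0.20, edgeR adjusted p = 3.40e-05). Its ICM 1-2 libraries read 70.7 and 10.2, 1 above and 1 below WT. MX1, a GTPase that traps viral nucleocapsids, was 1.46 and 1.29 CPM in WT, 1.62 and 1.75 in ICM 1-2 and 1.13 and 1.104 in ICM 3-4 without a call (log2 fold change -0.49, SE 0.41, edgeR adjusted p = 0.355). MX2 was under 1 CPM in 13 of 14 libraries.

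Of the OAS protein genes, OAS3 encodes an enzyme that makes the signal activating RNase L. It read 5.99 and 6.17 CPM in WT, 2.05 and 0.719 in ICM 1-2 and 1.38 and 0.710 in ICM 3-4. All ICM values lay below WT, and the ICM 3-4 difference was called (log2 fold change -2.73, SE 0.40, edgeR adjusted p = 0.00127). OASL, at 0.596 and 1.07 CPM in WT, had no count in ICM 3-4, at least 13.7-fold lower when 3 counts over the group are taken as the floor. XAF1, a pro-apoptotic interferon target, likewise had no count in ICM 3-4 against 1.37 and 2.28 CPM in WT, at least 30.0-fold lower, and 38.3% of its exon bases lie opposite another gene model.

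Other induced genes of less settled function fell too. IFI35 went from 13.2 and 12.9 CPM to 2.55 and 0.710 (log2 fold change -3.19, SE 0.51, edgeR adjusted p = 0.00212), and EPSTI1 from 2.71 and 3.29 to 0.418 and 0.394 (log2 fold change -3.07, SE 0.42, edgeR adjusted p = 0.000859). In ICM 1-2 these genes read 7.50 and 1.82 and 2.44 and 1.01 CPM, all below WT. IFI44 fell by 2.24 on the log2 scale. IFI44L read 0.477 and 0.631 CPM in WT, 0.205 and 0.350 in ICM 1-2 and 0 and 0.355 in ICM 3-4 and was not called (edgeR adjusted p = 0.197). IFI6 went the other way, from 16.1 and 12.7 CPM in WT to 17.5 and 17.8 in ICM 1-2 and 29.4 and 22.8 in ICM 3-4. All 4 ICM libraries exceeded both WT libraries, but the difference missed the threshold (log2 fold change 0.67, SE 0.25, edgeR adjusted p = 0.057).

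The antiviral factor SAMD9L, which shuts down translation, read 6.76 and 10.9 CPM in WT and 1.09 and 0.867 in ICM 3-4 (log2 fold change -3.36, SE 0.37, edgeR adjusted p = 0.000376). Its neighbour and paralog SAMD9 read 15.4 and 17.3 in WT and 9.75 and 19.6 in ICM 3-4, groups that overlap. RSAD2 and CMPK2, neighbouring enzymes that make antiviral nucleotides, stayed under 1 CPM in every library, and the exonuclease gene ISG20 did not pass (log2 fold change -1.14, SE 0.45, edgeR adjusted p = 0.0733).

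Transcription factors of the response were reduced in part. STAT2 read 177 and 187 CPM in WT, 169 and 82.1 in ICM 1-2 and 76.1 and 65.8 in ICM 3-4, below WT in all 4 ICM libraries (log2 fold change -1.55, SE 0.18, edgeR adjusted p = 0.000428 in ICM 3-4). IRF1 read 63.1 and 63.5 in WT, 54.6 and 34.9 in ICM 1-2 and 40.1 and 42.9 in ICM 3-4, again below WT throughout (log2 fold change -0.81, SE 0.17, edgeR adjusted p = 0.00582 in ICM 3-4). IRF7, which amplifies interferon production, read 1.43 and 0.658 CPM in WT, 0.307 and 0.497 in ICM 1-2 and 3.01 and 2.09 in ICM 3-4. The sets lie on opposite sides of WT and neither was called (edgeR adjusted p = 0.311 and 0.0998).

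The ISG15 system was divided. ISG15 read 24.4 and 20.6 CPM in WT, 25.1 and 32.0 in ICM 1-2 and 39.1 and 32.0 in ICM 3-4, above WT in all 4 ICM libraries but without a call (log2 fold change 0.47, SE 0.21, edgeR adjusted p = 0.11 in ICM 3-4). USP18, which removes it, fell from 16.0 and 18.4 CPM in WT to 4.35 and 2.80 in ICM 3-4 (log2 fold change -2.46, SE 0.30, edgeR adjusted p = 0.000614), with ICM 1-2 at 10.6 and 5.42. The ligase HERC5, which attaches ISG15, read 0.715 and 0.768 in WT, 0.717 and 3.91 in ICM 1-2 and 1.05 and 3.39 in ICM 3-4 and was not called. HERC6 was within 1.75 to 4.18 CPM in every library.

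Genes of the membrane proteins differed among themselves. IFITM1 read 92.8 and 89.3 CPM in WT, 122 and 16.5 in ICM 1-2 and 38.8 and 11.9 in ICM 3-4, where it fell (log2 fold change -2.02, SE 0.46, edgeR adjusted p = 0.0106). IFITM3 read 364 and 372 in WT, 208 and 230.3 in ICM 1-2 and 593 and 408 in ICM 3-4, lower than WT in both libraries of ICM 1-2 and higher in both of ICM 3-4, with no call on either side (edgeR adjusted p = 0.22 and 0.389). Tetherin, encoded by BST2, fell from 0.715 and 1.04 CPM in WT to 0.209 and 0.0788 in ICM 3-4 (log2 fold change -2.77, SE 0.77, edgeR adjusted p = 0.0159), with ICM 1-2 at 0.246 and 0.0184.

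RNA sensors IFIH1 and DHX58 fell by 1.52 and 2.67 on the log2 scale. EIF2AK2, the kinase that halts translation on double-stranded RNA, read 72.8 and 82.5 CPM in WT, 54.0 and 106 in ICM 1-2 and 63.6 and 81.2 in ICM 3-4. Its groups overlap and it did not pass (log2 fold change -0.30, SE 0.18, edgeR adjusted p = 0.207). Of the PARP and ubiquitin ligase genes, PARP9 and its partner DTX3L fell by 1.101 and 0.876, while PARP14, at 47.4 and 64.3 CPM in WT and 56.7 and 82.8 in ICM 3-4, and TRIM21, at 23.4 and 21.1 and 24.1 and 25.0, were not called.

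The ICM 3-4 calls on DHX58, EPSTI1, GBP1, IFI35, IFI44, IFIT1, IFIT2, OAS3, OASL, SAMD9L, STAT2, USP18 and XAF1 held under every alternative run. The other 8 (BST2, DTX3L, IFIH1, IFIT3, IFIT5, IFITM1, IRF1 and PARP9) were lost under at least 1 alternative, and scaling by total counts moved the median of all genes from 0 to 0.18 on the log2 scale and gave 2 higher and 20 lower members (5.26% and 52.6%, against 28.2% and 19.7% of all genes).

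ICM 1-2 against the same WT libraries gave no called member, with 8 (21.1%) at an unadjusted p under 0.05, the share of all genes being 21.0%. Over all genes 0.0837% were called higher and 0.0889% lower. The median of the members was -0.57 against 0.15 over all genes. Nearest to the threshold were IFIT1 (log2 fold change -2.82, SE 0.40, edgeR adjusted p = 0.0886), IFITM2, at 121 and 132 CPM in WT and 52.2 and 48.8 in ICM 1-2 (log2 fold change -1.40, SE 0.29, edgeR adjusted p = 0.121), and PARP14. PARP14, an ADP-ribosyltransferase, stood at 121 and 170.2 CPM in ICM 1-2, above both WT libraries (log2 fold change 1.29, SE 0.31, edgeR adjusted p = 0.143). Beside these values, DESeq2 called 5 members (IFIT1, IFITM2, OAS3 and OASL lower, PARP14 higher; 10.5% and 2.63%, against 5.28% and 4.66% of all genes). The comparison turned on single libraries: without ICM 1, 22 members were called (3 higher, 19 lower), and without ICM 2, 19 were called (6 higher, 13 lower), a lone ICM library being assumed to vary like WT. Over all genes the same fits called 56.7% without ICM 1 (27.9% higher, 28.8% lower) and 44.5% without ICM 2 (4289 genes higher, 4216 lower). Without ICM 1 the members' total was near the share of all genes. By direction it was not: a larger share of members was lower and a smaller share higher, also without ICM 2.

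Both ICM comparisons share the WT libraries. Every library of both sets lay below both WT libraries for 15 members (IFIT1, IFIT2, IFIT3, IFI35, IFI44, IFI44L, ISG20, OAS3, OASL, STAT2, IRF1, BST2, CMPK2, EPSTI1 and USP18), 39.5% of those tested against 16.9% of all genes. Only ISG15 and IFI6, of the 38 tested, lay above in both sets (5.26%, against 19.2% of all genes). IFIH1, MX1 and DTX3L were above WT in ICM 1-2 and below it in ICM 3-4 (7.89%, against 3.36% of all genes). IRF7 and IFITM3 were the reverse (5.26%, against 4.47%), a share near that of all genes.

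**Figure D3:**
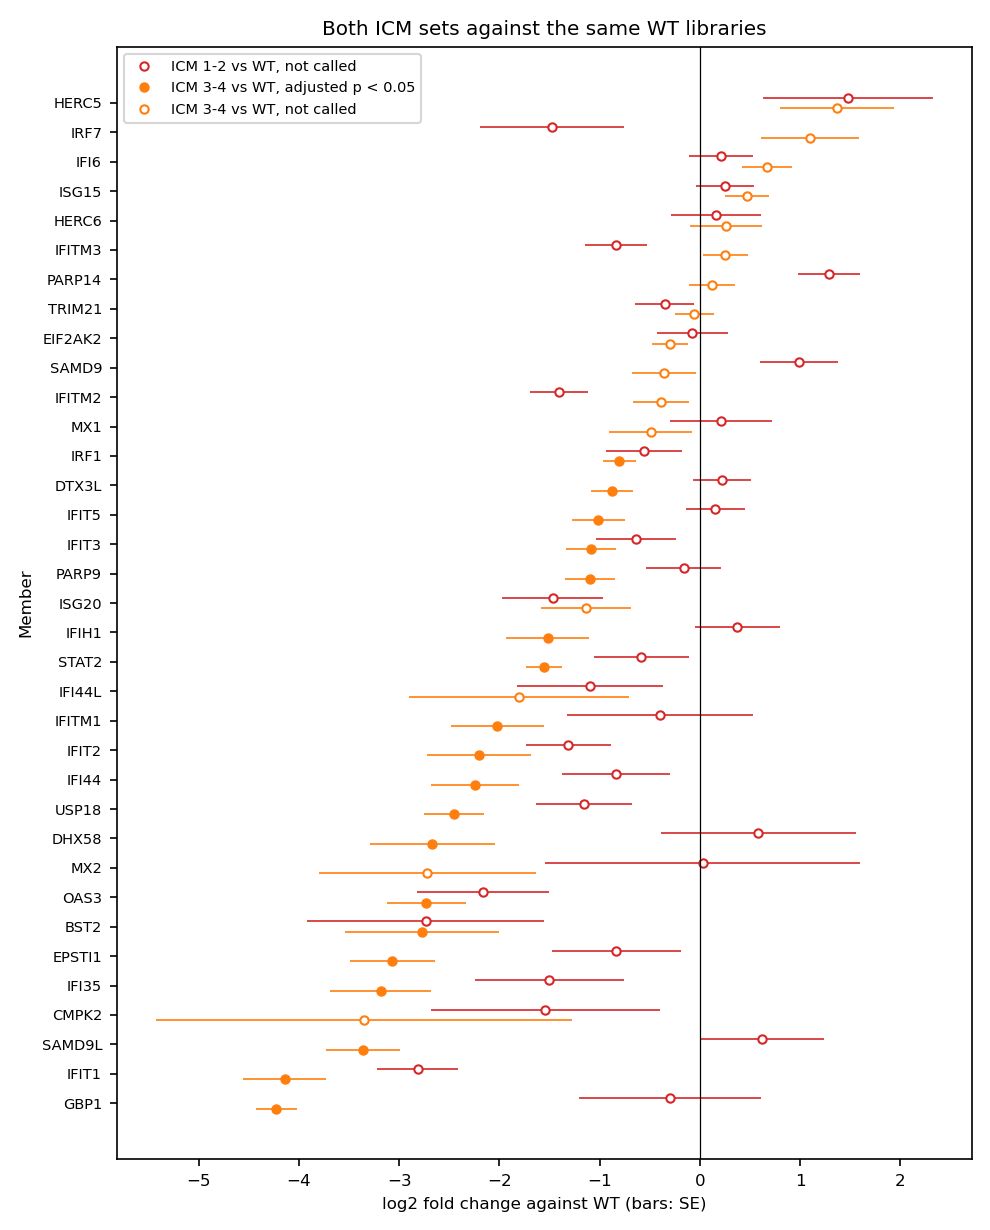
Log2 fold change (x axis) with SE of 35 tested members that have a finite SE in both comparisons, for ICM 1-2 (red) and ICM 3-4 (orange) against WT; filled points are called. GBP1 and IFIT1 have the lowest ICM 3-4 values, no red point is filled, and HERC5, ISG15, IFI6, HERC6 and PARP14 are right of 0 in both.

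The difference between the sets was tested by setting ICM 3-4 against ICM 1-2. SAMD9L was the 1 member called, at 20.02 and 7.79 CPM in ICM 1-2 and 1.09 and 0.867 in ICM 3-4 (log2 fold change -4.01, SE 0.65, edgeR adjusted p = 0.0491). Over all genes 0.497% were called higher and 0.753% lower, and the member share lower was 2.63%. GBP1 came next (log2 fold change -3.95, SE 0.83, edgeR adjusted p = 0.0796). The SAMD9L call was lost with another scaling (RLE, adjusted p = 0.0512), with a filter on the compared libraries (0.0576), among protein-coding genes alone (0.0926) and without ICM 4 (0.0653), the log2 fold change staying between -4.59 and -3.02. Without ICM 2, 15 members were called (39.5%, against 36.5% of all genes), without ICM 1, 8 (21.1% against 12.6%), and without ICM 3, 2 (5.26% against 2.66%).

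Knockdown of HMGB2 without ICM gave 2 higher and 3 lower members, 5.26% and 7.89% of those tested, where 6.03% and 4.71% of all genes were called. GBP1 rose from 45.7 and 53.8 CPM in WT to 98.4 and 99.6 in siHMGB2 (log2 fold change 1.05, SE 0.14, edgeR adjusted p = 7.92e-08), a direction opposite to ICM 3-4. USP18 rose from 16.0 and 18.4 to 26.6 and 27.9 (log2 fold change 0.72, SE 0.15, edgeR adjusted p = 0.000459). IFIT1 fell from 7.002 and 6.996 to 3.39 and 2.33 (log2 fold change -1.23, SE 0.25, edgeR adjusted p = 0.000305), IFIT3 from 12.2 and 12.0 to 7.38 and 8.04 (log2 fold change -0.59, SE 0.18, edgeR adjusted p = 0.0283) and IFITM1 from 92.8 and 89.3 to 60.8 and 56.7 (log2 fold change -0.57, SE 0.14, edgeR adjusted p = 0.00208). Called or not, 4 members lay above both WT libraries and 18 below both, 10.5% and 47.4%, against 19.7% and 29.3% of all genes.

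Of the remaining panel genes in siHMGB2, ISG15 read 24.8 and 30.3 CPM, IFI6 11.9 and 11.2, STAT2 155 and 151 and IRF1 63.8 and 59.5. IFITM3 read 323 and 351, EIF2AK2 77.7 and 67.9, MX1 2.83 and 0.753, IRF7 0.350 and 1.02, BST2 0.162 and 0.340 and IFI44L 0.242 and 0.680 CPM. None of these was called. A fit that shares the spread of all 14 libraries called none of the 5, nor any other gene, and leaving out WT 1 kept GBP1 and IFIT1 alone.

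The libraries labelled siSRRM2 were compared with ICM 1-2, and ICM 1-2 is also the control of the libraries labelled siBANF1. No member was called, with 6 (15.8%) at an unadjusted p under 0.05, and 0% of all genes were called higher and 0% lower (7.63% had an unadjusted p under 0.05). IFIT1 stood at 12.2 and 13.4 CPM in siSRRM2 against 0.984 and 1.12 in ICM 1-2 and 7.002 and 6.996 in WT, the highest of all 14 libraries (log2 fold change 3.62, SE 0.29, edgeR adjusted p = 0.463 against ICM 1-2). DESeq2 called IFIT1 alone among members and 1.07% of all genes. Across alternatives its adjusted p ranged from 1.52e-11 to 0.755, with a log2 fold change of 3.53 to 3.69.

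ISG15 read 54.5 and 57.8 CPM in siSRRM2, USP18 22.3 and 23.0 and IFI6 30.3 and 29.8, all above both ICM 1-2 libraries and both WT libraries (log2 fold change 1.00, SE 0.23, edgeR adjusted p = 0.641 for ISG15). IRF7 read 1.93 and 1.58 and IRF1 72.8 and 74.6, also above both. IFIT3 read 13.4 and 12.6, IFITM3 327 and 315 and STAT2 105 and 99.8 CPM. GBP1 read 42.1 and 42.3, IFITM1 76.5 and 76.0, EIF2AK2 73.7 and 71.8, MX1 1.39 and 1.28, BST2 0.0899 and 0.0216 and IFI44L 0.225 and 0.303 CPM, and all of these but MX1 lay between the ICM 1 and ICM 2 values. In all, 14 tested members lay above both ICM 1-2 libraries, 4 below both and 20 overlapped. These are 36.8% above and 10.5% below, against 20.5% and 21.0% of all genes. The 10 that also exceeded both WT libraries (26.3%, against 14.6% of all genes) were IFIT1, IFIT3, IFI6, ISG15, IRF1, IRF7, HERC6, PARP9, TRIM21 and USP18. Leaving out ICM 1 gave 24 called members (20 higher, 4 lower) and leaving out ICM 2 gave 25 (15 higher, 10 lower). The same fits called 52.5% of all genes without ICM 1 (26.1% higher, 26.4% lower) and 62.9% without ICM 2 (32.2% higher, 30.7% lower).

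**Figure D4:**
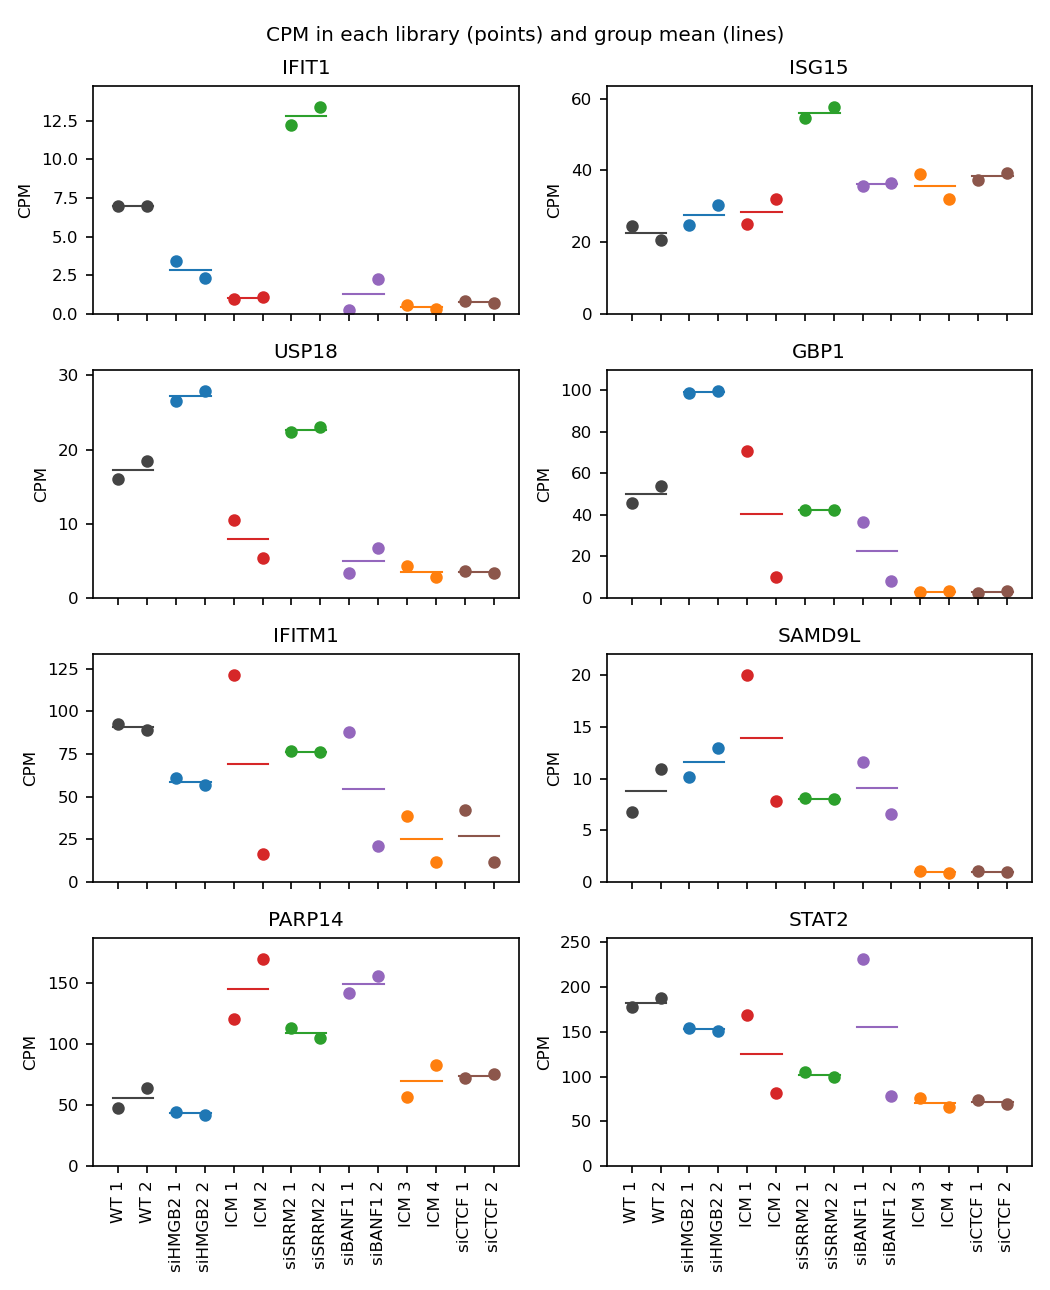
CPM (linear axis from 0) of 8 members in each of the 14 libraries, points for libraries and lines for group means. IFIT1 and ISG15 are highest in siSRRM2, GBP1 and USP18 in siHMGB2, and the paired points of ICM 1-2 and siBANF1 lie far apart for GBP1, IFITM1 and STAT2.

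In the libraries labelled siBANF1 no member was called against ICM 1-2 by edgeR or DESeq2 and none had an unadjusted p under 0.05, with 0% of genes called higher and 0% lower. IFIT1 read 0.279 and 2.28 CPM, ISG15 35.7 and 36.5, STAT2 232 and 78.5 and IRF1 105 and 43.1. GBP1 read 36.5 and 8.32, IFITM1 87.9 and 20.9, IFITM3 185 and 264 and EIF2AK2 148 and 92.2. IFIT3 read 5.73 and 10.3, IFI6 15.2 and 19.6, MX1 0.735 and 1.356, IRF7 1.06 and 0.549, BST2 0.456 and 0.0343 and IFI44L 0.0254 and 0.343 CPM. ISG15 and IRF7 were above both ICM 1-2 libraries (5.26% of tested members, against 6.24% of all genes) and IFIT2, MX1 and RSAD2 below both (7.89% against 8.22%), shares near those of all genes. The siBANF1 replicates were at least 2-fold apart for 12 of 31 members (38.7%, against 35.4% of all genes).

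CTCF knockdown in ICM cells was compared with ICM 3-4. CTCF itself was lowered unequally, at 71.5 and 23.0 CPM in siCTCF against 94.9 and 91.9 in ICM 3-4. Again no member was called by edgeR or DESeq2, none had an unadjusted p under 0.05, and 0% of genes were called higher and 0% lower. IFIT1 read 0.851 and 0.710 CPM, ISG15 37.4 and 39.4, IFIT3 7.03 and 9.45 and IFI6 24.2 and 26.1. GBP1 read 2.51 and 3.62, IFITM1 42.4 and 11.5, IFITM3 565 and 416, STAT2 74.0 and 69.2 and IRF1 42.9 and 38.6. EIF2AK2 read 68.1 and 75.0, MX1 1.16 and 0.710, IRF7 1.70 and 1.31, BST2 0.134 and 0 and IFI44L 0 and 0.560 CPM. The members' median log2 fold change was 0.02. IFIT1, IFIT3 and XAF1, the last with 1 count in each siCTCF library, lay above both ICM 3-4 libraries, 7.89% of tested members against 7.52% of all genes (for IFIT1 and IFIT3, log2 fold changes 0.80, SE 0.62, and 0.34, SE 0.30) and IRF7 alone below both (-0.75, SE 0.43; 2.63% against 9.55%).

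The replicates of a group differed in the members in a way that recurred between groups, as it did over all genes. Of 31 members averaging 1 CPM or more, 9 differed at least 2-fold between ICM 1 and ICM 2 (34.3% of all genes did), and all 9 differed the same way between siBANF1 1 and siBANF1 2, 7 of them (77.8%) at least 2-fold. Of all genes apart in ICM 1-2, 97.5% differed the same way in siBANF1 and 71.9% at least 2-fold. GBP1 was lower in the second library of both, 70.7 and 10.2 CPM in ICM 1 and ICM 2 and 36.5 and 8.32 in siBANF1. HERC5 was the reverse, 0.717 and 3.91 and 0.507 and 2.32. The same held for 5 members apart between ICM 3 and ICM 4 (7.41% of all genes were), all 5 the same way between siCTCF 1 and siCTCF 2, 3 of them (60.0%) at least 2-fold, where 98.4% of all genes apart in ICM 3-4 went the same way and 48.9% at least 2-fold. IFITM1 read 38.8 and 11.9 in ICM 3-4 and 42.4 and 11.5 in siCTCF. No member was 2-fold apart in WT or siSRRM2 and 1 was in siHMGB2.

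Over the 31 members, ICM 2 was nearest to siBANF1 2 (median absolute log2 difference 0.20) and further from ICM 1 (0.57). ICM 1 was nearest to WT 2 (0.48), and siBANF1 1 to ICM 1 (0.65). ICM 3 was nearest to siCTCF 1 (0.16) and ICM 4 to siCTCF 2 (0.18), against 0.44 between ICM 3 and ICM 4. The fibroblast marker sum moved with these differences, from 22950 CPM in ICM 1 to 5555 in ICM 2 and from 19780 in siBANF1 1 to 6079 in siBANF1 2. Reads given to no gene made up 35.24% in ICM 1, 26.50% in ICM 2, 41.78% in siBANF1 1 and 28.39% in siBANF1 2, and mitochondrial mRNA 0.454%, 0.0677%, 0.754% and 0.0685% of gene counts in the same order. The part of any of these in the differences was not tested.

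**Figure D5:**
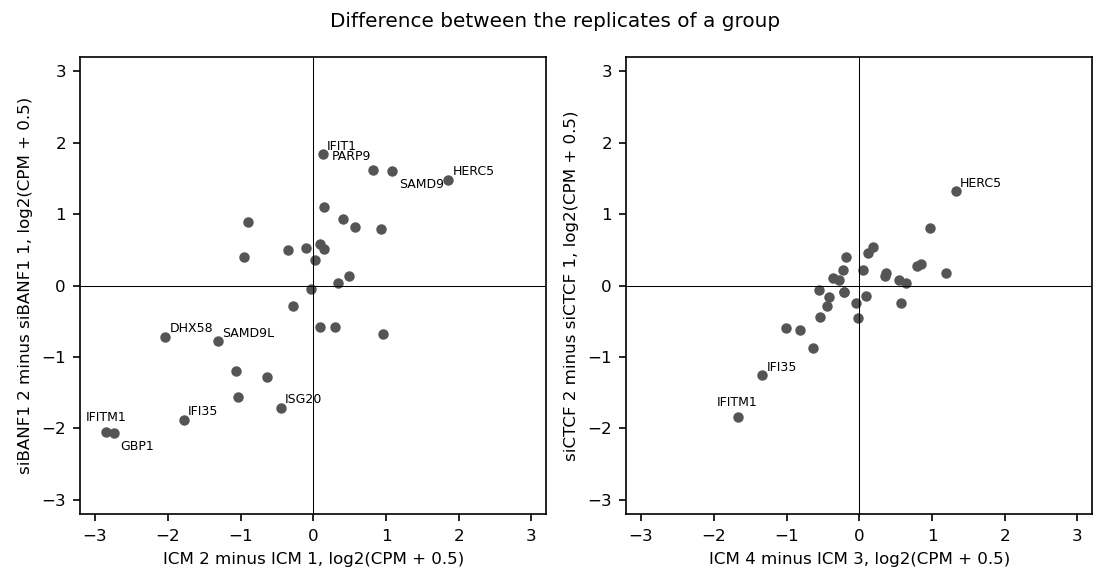
Difference between the replicates of a group, in log2(CPM + 0.5), for 31 members: ICM 1-2 against siBANF1 on the left, ICM 3-4 against siCTCF on the right. IFITM1 and IFI35 lie lower left and HERC5 upper right in both panels, and GBP1 lies lower left on the left and near 0 to the upper right on the right.

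Upstream genes were read from lists of ligands, receptors and sensors. IFNB1, which encodes interferon beta, had no count in any library, as had IFNK, IFNG and the interferon lambda genes IFNL1, IFNL2 and IFNL3. Where 3 counts are the floor, this leaves room for up to 0.0515 to 0.134 CPM by library. IFNE was near 1 CPM in WT (0.983 and 1.12) and was not called in any comparison. CXCL10, an interferon-inducible chemokine, read 4.14 and 2.52 CPM in WT, 6.88 and 0.479 in ICM 1-2 and 0 in all 4 ICM 3-4 and siCTCF libraries. It was lower in ICM 3-4 than in WT (edgeR adjusted p = 0.000383), as was IL6 (log2 fold change -9.44, SE 0.38, edgeR adjusted p = 2.45e-05).

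Receptors and kinases of the pathway gave 5 lower and 1 higher of 10 tested in ICM 3-4 against WT (beside 23.5% of all genes each way). The receptor chain genes IFNAR1 (95.5 and 99.9 CPM in WT, 49.7 and 69.2 in ICM 3-4) and IFNAR2 (26.0 and 27.5, 14.3 and 11.5) fell by 0.92 and 1.24 on the log2 scale. JAK1 fell by 0.83, and TYK2 rose from 57.1 and 59.0 to 99.7 and 96.5 CPM (log2 fold change 0.56, SE 0.17, edgeR adjusted p = 0.0247).

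Sensors and adaptors were mixed, with 2 higher and 3 lower of 13 tested in ICM 3-4 against WT, 15.4% and 23.1% where 23.5% of all genes were called each way. The DNA sensor gene CGAS read 5.99 and 5.57 CPM in WT and 6.78 and 4.45 in ICM 3-4 and was not called. STING1, its adaptor, was listed below 0.13 CPM in every library. MAVS, the adaptor of RNA sensors, read 138 and 146 in WT and 207 and 224 in ICM 3-4, above WT but not called (edgeR adjusted p = 0.0709). IRF3, which starts interferon transcription, rose from 54.4 and 44.4 to 113 and 88.7 CPM (log2 fold change 0.84, SE 0.21, edgeR adjusted p = 0.0137) and the Toll-like receptor adaptor TICAM1 from 15.9 and 14.7 to 64.5 and 76.5 (log2 fold change 2.01, SE 0.18, edgeR adjusted p = 0.000168). DDX58, which encodes the RNA sensor RIG-I, fell from 20.7 and 21.9 to 10.0 and 14.9 (log2 fold change -0.98, SE 0.24, edgeR adjusted p = 0.0129). The repressor gene IRF2 fell in siHMGB2 (log2 fold change -0.57, SE 0.15, edgeR adjusted p = 0.00605).

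Negative regulators gave 1 higher and 2 lower of 7 in ICM 3-4 (14.3% and 28.6%, beside 23.5% of all genes each way). SOCS3, which blocks JAK kinases, read 217 and 179.9 CPM in WT, 76.4 and 64.9 in siHMGB2 and 40.4 and 19.2 in ICM 3-4, and fell in both comparisons (log2 fold change -1.43, SE 0.14, edgeR adjusted p = 1.34e-10 in siHMGB2, log2 fold change -2.92, SE 0.34, edgeR adjusted p = 0.000551 in ICM 3-4). SOCS1 fell by 1.78 on the log2 scale in ICM 3-4, and NLRX1, a mitochondrial inhibitor of MAVS, rose (log2 fold change 1.12, SE 0.23, edgeR adjusted p = 0.00631).

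Other interferon-responsive effectors gave 6 higher and 18 lower of 38 in ICM 3-4 (15.8% and 47.4%, beside 23.5% of all genes each way). GBP3, from the same gene cluster as GBP1, rose in siHMGB2 (log2 fold change 0.62, SE 0.14, edgeR adjusted p = 0.00148) and fell in ICM 3-4 (log2 fold change -1.67, SE 0.30, edgeR adjusted p = 0.00353), the directions GBP1 took. PML, the organiser of nuclear bodies, rose in both (0.48, SE 0.15, in siHMGB2 and 0.65, SE 0.18, in ICM 3-4), and SLFN5 and the inflammatory protease gene CASP1 fell in both. Antigen presentation genes, which interferon also induces, gave 9 lower (69.2%) and none higher of 13 in ICM 3-4, beside 23.5% of all genes each way. Of the 13, HLA-E had no count in WT or ICM 3-4. B2M, the light chain of MHC class I, read 94.0 and 101 CPM in WT, 73.1 and 44.1 in ICM 1-2 and 44.2 and 28.0 in ICM 3-4 (log2 fold change -1.62, SE 0.25, edgeR adjusted p = 0.00159), and HLA-B and HLA-C fell too. No gene of these 6 pathway lists was called in ICM 1-2 against WT, siSRRM2, siBANF1 or siCTCF, and IL6 was the 1 called between the ICM sets.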

How the data were processed

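Gene counts were made by the authors. Per the submitters' processing notes, STAR 2.7.3a, HTSeq 0.12.4 and the hg38 build were used, and the notes also name DESeq2 1.36.0. Annotation release and strand setting are not given in the sources used here. Per the labels' protocols, RNA was extracted with Trizol and on-column DNase, prepared with a TruSeq kit and sequenced in pairs. The deposited counts are whole reads per gene symbol, without normalization; 5 summary lines per table that name no gene were left out, and the reads given to no gene are in the report.

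CPM used the summed gene counts of each library. Tests were quasi-likelihood F-tests of edgeR 4.0.16 (R 4.3.3) with TMM scaling on only the 4 libraries compared, over 19126 genes kept by filterByExpr on all 7 groups, with Benjamini-Hochberg adjustment over all of them and a threshold of 0.05. Fold changes are on the log2 scale. The fits were also run on simulated data, with an outcome not reported here. Genes were drawn independently there, so replicate differences shared across genes were not covered. Fits were kept to the compared libraries because an earlier account of these data found unequal spread between groups. Alternatives were RLE and total-count scaling, other filters, DESeq2 1.42.0, all 14 libraries in 1 fit, protein-coding genes alone, a replicate block and each library left out.

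The members, pathway lists (ligands, receptors and kinases, sensors and adaptors, negative regulators, other effectors, antigen presentation) and marker lists (fibroblast, immune, epithelial and endothelial) were chosen with earlier results of these data known. Named members were a fixed panel of 17 and, per comparison, up to 6 called members with the largest fold change, a mean of at least 1 CPM and no overlap; others are named to account for every member. At most 4 genes per pathway list were named, besides IFNB1, IFNAR1, IFNAR2, JAK1, TYK2, CGAS, STING1, MAVS, IRF3 and B2M, and near-absent ligands; some pathway genes are not reported here. Promoter windows came from RefSeq (GRCh38.p14) and exon lengths from GENCODE v29.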

Additional observations from a re-analysis of the deposited data

Results flagged for a closer look

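The response of SAMD9L to ICM differed between the sets. The direct comparison of ICM 3-4 with ICM 1-2 gave a log2 fold change of -4.01 (SE 0.65, edgeR adjusted p = 0.0491), with ICM 1 above both WT libraries, ICM 2 between them, and ICM 3 and ICM 4 below both. This passed the threshold narrowly, and the adjusted p ranged from 2.65e-07 to 0.0926 over the alternatives. Set and culture cannot be told apart in this difference.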

How the results depend on the processing

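No member with an unadjusted p under 0.05 changed direction under any alternative run. The members' median log2 fold change changed sign in siBANF1, from -0.31 to 0.13 without ICM 1, and in siCTCF, from 0.02 to -0.02 without ICM 3 and -0.04 without siCTCF 1. Counts of called members that moved by more than 1.5 times were as follows. For ICM 1-2 against WT, where none was called, testing every gene with at least 1 count gave 6, DESeq2 5, all 14 libraries in 1 fit 3 and the replicate block 2 (IFIT1 and OAS3), while the share of all genes called went from 0.173% to 8.88%, 9.94%, 13.5% and 7.56%. For ICM 3-4 against ICM 1-2, where 1 was called, the same settings in that order gave 6, 6 and 11 (all genes 9.61%, 12.3% and 19.5%, from 1.25%), while RLE scaling, a filter on the compared libraries and protein-coding genes alone each gave 0. For siHMGB2 against WT, where 5 were called, all 14 libraries in 1 fit gave 0. For siSRRM2 against ICM 1-2, where none was called, DESeq2 gave 1 and the replicate block 1, IFIT1 each time (all genes 1.07% and 0.539%). The causes were not tested. When single libraries were left out, the share of all genes called also moved in each comparison where the number of called members did. The ranges that follow count members alone, so they do not show whether members and other genes differ. Leaving out 1 library at a time gave 0 to 22 called members in ICM 1-2 against WT, 14 to 29 in ICM 3-4 against WT, 1 to 15 in ICM 3-4 against ICM 1-2, 2 to 6 in siHMGB2, 0 to 25 in siSRRM2, and 0 in siBANF1 and siCTCF throughout; a group left with 1 library was assumed to vary like the other group.

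Libraries with the same replicate number in their titles share only that number. Deviations from group means of same-numbered libraries correlated at -0.08 in ICM 1-2 against WT, 0.06 in siHMGB2 against WT, 0.00 in siSRRM2, 0.81 in siBANF1 and 0.48 in siCTCF, the last with ICM 3 paired to siCTCF 1. With the replicate block, 6 members were called in siHMGB2 against WT (ISG20 added), 15.8% against 12.0% of all genes. In siBANF1 and siCTCF 0 were called, beside 0.00523% and 0.0209% of all genes. No replicate block was run for ICM 3-4 against WT or ICM 1-2, groups that share no replicate number. ICM 3-4 and siCTCF share none either, and their pairing was assumed, not taken from the labels. Depth limits members with few reads: IFI27, OAS1, OAS2 and IRF9 could not be tested.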

Other observations

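Some pathway genes outside the members stood apart in the libraries labelled siSRRM2; they were picked after their values were seen and have no called difference. The RNA sensor gene TLR3 read 2.81 and 3.35 CPM there and no more than 0.57 in any other library. DDX58 read 50.7 and 51.7 CPM against 26.7 and 30.2 in ICM 1-2, and STAT3 417 and 410.0 against 264 and 185. CXCL10 reached its highest level, 28.7 CPM, in siBANF1 1, where siBANF1 2 read 0.549.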
